A study of Mus musculus with 67 samples.

Results

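Middle-aged and young adult C57BL/6 mice that had been kept on caloric restriction (CR) were compared in the striatum. The comparison holds 19 of the 67 arrays of the series, chosen by the diet and age given in the labels, with 1 mouse per array. Middle CR mice were 472 to 499 days old (5 males and 5 females), and young CR mice were 174 to 194 days old (4 males and 5 females). The middle minus young difference was taken within each sex and averaged, so that both sexes weighed equally.

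All 19 mice had been fed a regular feed for the first 13 weeks. They then received 90% and 75% of it, each for 1 week as a fortified feed, and 60% from then until they were killed. The young CR mice were thus 83 to 103 days past the end of regular feeding, and the middle CR mice 381 to 408 days. Age and time on restriction cannot be told apart in this comparison. A further 20 mice of like ages fed ad libitum (AL, 10 young and 10 middle) were used for the same age comparison without restriction. RNA came from whole dissected striatum, so fewer cells of a type and less RNA per cell cannot be told apart.

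The striatum is the input station of the basal ganglia, and most of its neurons are GABAergic projection neurons that integrate cortical and thalamic glutamate with dopamine from the midbrain. Caloric restriction lowers insulin and IGF signaling and engages AMPK, fatty acid oxidation and protein quality control in many tissues. Brain aging is often described through synaptic, mitochondrial, ribosomal and proteasomal genes and through glial activation, and these groups were therefore examined alongside single genes.

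Each array was a nylon filter of cDNA clones, hybridized with radioactively labelled cDNA. Values are Z scores, the distance of a feature from the mean of its array in units of the SD over that array's 8448 features. Group differences are in these units throughout, and fold changes cannot be computed from them. Of the 14 striatal projection neuron markers examined, 2 had a feature with a single gene name, Ppp1r1b (DARPP-32) and Rasd2 (Rhes), with mean scores of 0.639 and 0.231 in young CR mice. The markers of myelin, choroid plexus and cortical neurons fixed for this check had no such feature. Broader lists had 4 myelin and oligodendrocyte genes on the array, of which 2 had a mean score above 0, and 1 cortical neuron gene, which did not. The summed score of 4 astrocyte markers ranged from -1.09 to 0.24 in young and from -0.925 to -0.065 in middle CR mice. That of 2 microglial markers ranged from -0.22 to 0.71 and from 0.01 to 0.87, and that of 3 blood markers from -0.892 to -0.0867 and from -0.675 to 0.0075. These ranges overlapped for each cell type.

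Most of the arrays resembled one another closely and 2 stood apart. The 17 alike correlated with the median profile of all arrays at 0.979 to 0.995. Young CR female replicate 4 and middle CR male replicate 3 correlated with it at 0.936 and 0.933, but with each other at 0.978. Along the first principal component of the 19 arrays, which held 59.9% of the variance, these 2 arrays lay at 23.3 and 24.7 while the others lay between -8.58 and 3.18. One of the 2 belonged to each age, and they entered the difference of females and that of males with opposite signs. Results are given with and without them where it matters. The second component held 18.6% of the variance and was higher in the late runs of title numbers, 5 stretches of consecutive numbers in the array titles. In young CR mice its mean was -6.64 in the first run and 10.34 in the fifth, which held only female replicate 5 of them. In middle CR mice the means were -0.955 and 7.88.

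No single gene passed the test between middle and young CR mice when all arrays weighed equally. Of 4257 features with a mean score above 0, 0 passed a Benjamini-Hochberg adjusted p of 0.05 in limma (0.0%), and the smallest adjusted p was 0.877. At an unadjusted p under 0.05 there were 97 features (2.28%), 52 higher (1.22%) and 45 lower (1.06%) in middle CR mice. The SD of the 4257 differences was 0.0776, against a median standard error of 0.0742. The groups overlapped for every tested feature (0.0% did not). By the rule of the study's methods, a difference beyond 1.5 SD of all differences with an unadjusted p under 0.05, 43 features were higher and 20 lower (1.48% of 4264), and 0 remained after adjustment.

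The count rose steeply when arrays were allowed to weigh unequally. With array weights, which let arrays that deviate more from their group count less, 742 of the 4257 features passed (17.4%), 361 higher (8.48%) and 381 lower (8.95%) in middle CR mice, and the smallest adjusted p was 0.000735. The weights of the 19 arrays ran from 0.08 for young CR female replicate 4 to 4.01 for middle CR male replicate 2. In young CR mice they were 0.437 to 2.145 in the first 2 runs of title numbers and 3.417 and 2.686 in the third. In the last 2 runs they were 0.08, 0.605 and 0.281, so the young mean rested mostly on earlier runs. The part of this in the calls was not tested. The estimation of these weights stopped before it had converged, with a weight of 145.1 for 1 array outside the comparison. In 4 further weighted fits, chosen after seeing this, the count lay between 687 and 823, and 380 features (8.93%) passed in all 5, of which 231 were higher (5.43%) and 149 lower (3.5%). Dropping all arrays of different profile without weights gave 0 features at an adjusted p of 0.05 and 810 at an unadjusted p under 0.05, with a smallest adjusted p of 0.197. The features below are therefore called leading and not changed, and it is said which passed with array weights.

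**Figure D1:**
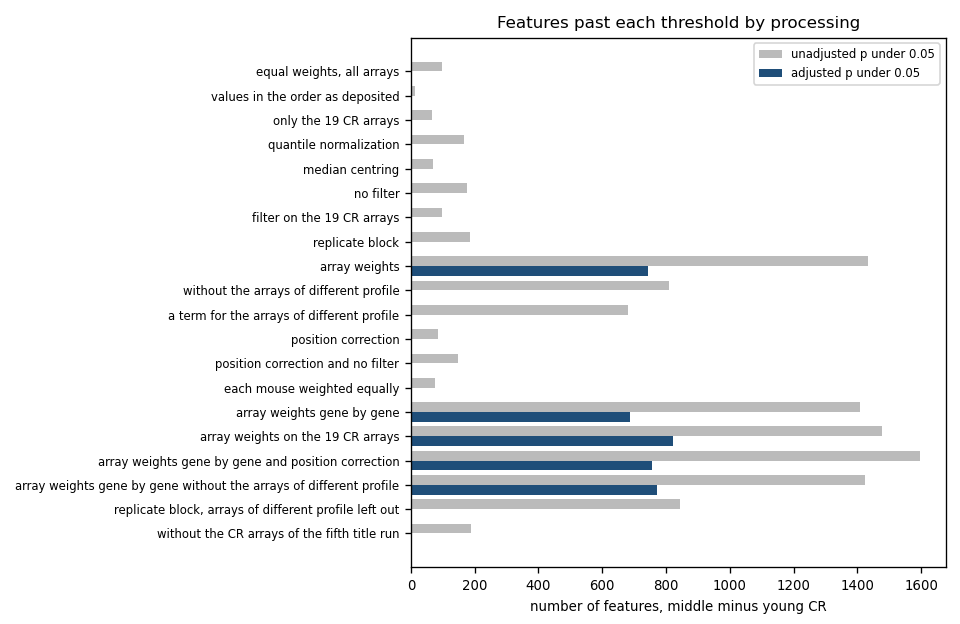
Number of features past an unadjusted p of 0.05 (grey) and an adjusted p of 0.05 (blue) in limma for middle minus young CR, by processing, out of 4257 in most settings. Only the 5 fits with array weights reach an adjusted p of 0.05, with 687 to 823 features, while 0 features reach it in the others plotted.

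The 30 leading features were the 15 in each direction with the smallest unadjusted p (0.0123 to 0.038) among those with a single gene name. They were chosen on this comparison, so their values describe it and add no further support. Differences ran from 0.0887 to 0.203 in the genes higher in middle CR mice and from -0.209 to -0.093 in those lower. All 30 had an adjusted p of 0.877 with equal weights, and 26 passed with array weights (17.4% of all features did), 20 of them in all 5 weighted fits. Each of the 30 kept its direction in those of the 38 other fits that tested it. Exact permutation of age within sex (two-sided, 31752 arrangements, smallest possible p 6.3e-05) gave unadjusted values from 0.00494 to 0.0979.

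The genes higher in middle CR mice included Rnf216, Rnf40, Cops5 and Nfe2l1, and those lower included G2e3 and Rspry1, so that genes with roles in ubiquitination lay in both directions. Rnf216, an E3 ubiquitin ligase, had scores of -0.10, 0.14 and 0.29 (lowest, median and highest) in young and of 0.14, 0.29 and 0.61 in middle CR mice. In 9 of 10 middle CR mice it lay above the young median, although the groups overlapped, and the difference was 0.179 ± 0.0835 (SE; exact permutation p = 0.00494). It was higher in all 5 runs of title numbers, although the fifth held only female replicate 5 of the young CR mice. Rnf40, which ubiquitinates histone H2B, differed by 0.196 ± 0.0912. Cops5, the catalytic subunit of the COP9 signalosome, differed by 0.113 ± 0.0505. Nfe2l1, a transcription factor that raises proteasome genes, had scores of 1.72, 2.08 and 2.41 in young and of 2.09, 2.21 and 2.35 in middle CR mice. All 10 middle CR mice lay above its young median, and the difference was 0.17 ± 0.074. A second Nfe2l1 feature with a mean score below 0 pointed the other way, at -0.205 ± 0.0696, so the direction of this gene is uncertain.

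The other 11 genes higher in middle CR mice have varied roles. Mbnl1, a splicing regulator of the muscleblind family, had scores of -0.04, 0.40 and 0.65 in young and of 0.36, 0.51 and 0.73 in middle CR mice, a difference of 0.147 ± 0.0571. For Mbnl1 9 of 10 middle CR mice lay above the young median, and young CR male replicate 2 was far below all others. Without that array the difference was 0.092. Neurl4, of the neuralized family, had scores of 0.56, 0.72 and 1.13 in young and of 0.77, 0.91 and 1.27 in middle CR mice. All 10 middle CR mice exceeded the young median and the difference was 0.203 ± 0.0808, with an adjusted p of 0.00148 in limma with array weights. Dennd5a, an exchange factor for Rab GTPases, ranged from 1.71 to 2.36 in young and from 1.99 to 2.16 in middle CR mice, with medians of 1.81 and 2.05. The young groups spread far more widely for Dennd5a (SD 0.211, n = 9) than the middle ones (SD 0.0572, n = 10), and without the arrays of different profile these SDs were 0.133 and 0.057. Its difference was 0.165 ± 0.0738. Sdc4, a heparan sulfate proteoglycan, differed by 0.172 ± 0.0771, and Slc17a9, the vesicular nucleotide transporter, by 0.119 ± 0.0533. Slc27a4, a fatty acid transport protein, differed by 0.131 ± 0.0612. Rmst, a long noncoding RNA of neural differentiation, differed by 0.197 ± 0.0891 and 2410002F23Rik by 0.134 ± 0.0559. The remaining genes were Nxn, a thioredoxin-like protein (0.0887 ± 0.0413), Snrpe, a core protein of spliceosomal particles (0.137 ± 0.0619, and 0.0885 without young CR female replicate 1), and Atp5md, a small subunit of the ATP synthase (0.154 ± 0.0698). Snrpe was the only one of these 15 that did not pass with array weights. Second features of Nxn (-0.0592 ± 0.0656) and Atp5md (-0.105 ± 0.0866) lay in the opposite direction.

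The genes lower in middle CR mice included Avpr1a, Pdgfrb and Gna13, which act in signaling from the cell surface. Avpr1a, a vasopressin receptor, had scores of -0.15, 0.13 and 0.41 in young and of -0.14, 0.00 and 0.13 in middle CR mice, a difference of -0.143 ± 0.0619. No middle CR mouse exceeded the young median. Pdgfrb, the PDGF receptor of pericytes, had scores of 0.01, 0.37 and 0.46 in young and of 0.06, 0.24 and 0.32 in middle CR mice. All 10 middle CR mice lay below its young median, and the difference was -0.114 ± 0.052 (adjusted p = 0.00417 in limma with array weights). Gna13, a G protein alpha subunit, differed by -0.117 ± 0.052, and its other 2 features by -0.137 ± 0.0697 and -0.0175 ± 0.0414. Ppfibp1, a liprin, differed by -0.093 ± 0.0414, and its second feature, with a mean score below 0, by 0.008 ± 0.0994. Cep57l1, a centrosomal protein, showed the largest difference of the 30, -0.209 ± 0.0804. Its scores were -0.19, 0.18 and 0.32 in young and -0.23, -0.12 and 0.25 in middle CR mice. Ttc21b, a component of the intraflagellar transport machinery of cilia, differed by -0.111 ± 0.0483.

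The other genes lower in middle CR mice included Ctbp2, Hsp90aa1 and Fubp1. Ctbp2, a transcriptional corepressor, had scores of 0.26, 0.55 and 0.65 in young and of 0.36, 0.395 and 0.47 in middle CR mice. All 10 middle CR mice lay below the young median, and 1 young array lay below all of them, that of young CR female replicate 4. The difference was -0.102 ± 0.0446 with all arrays and -0.131 without the arrays of different profile. Hsp90aa1, the inducible cytosolic HSP90, had scores of 0.29, 0.69 and 0.77 in young and of 0.33, 0.495 and 0.65 in middle CR mice, a difference of -0.131 ± 0.061. Every middle CR mouse lay below the young median. Fubp1, a single-stranded DNA-binding regulator, differed by -0.14 ± 0.065, but by -0.0827 without young CR male replicate 1. Its second feature, with a mean score below 0, differed by 0.00375 ± 0.0654. Jmjd4, a JmjC-domain protein, differed by -0.0968 ± 0.0434. G2e3, an E3 ubiquitin ligase, differed by -0.126 ± 0.0558 and Rspry1, a RING-finger protein, by -0.127 ± 0.0532. Zfp952, Mlf2 and AA414768 differed by -0.113 ± 0.0503, -0.124 ± 0.056 and -0.124 ± 0.056. Leaving out 1 array moved the difference by over 1.5 times in 6 of the 30 genes, namely Mbnl1, Snrpe and Fubp1 as given above, G2e3 (-0.0803) and Zfp952 (-0.073), both without young CR male replicate 1, and Mlf2 (-0.0823), without young CR female replicate 4. G2e3, Zfp952 and Gna13 did not pass with array weights.

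**Figure D2:**
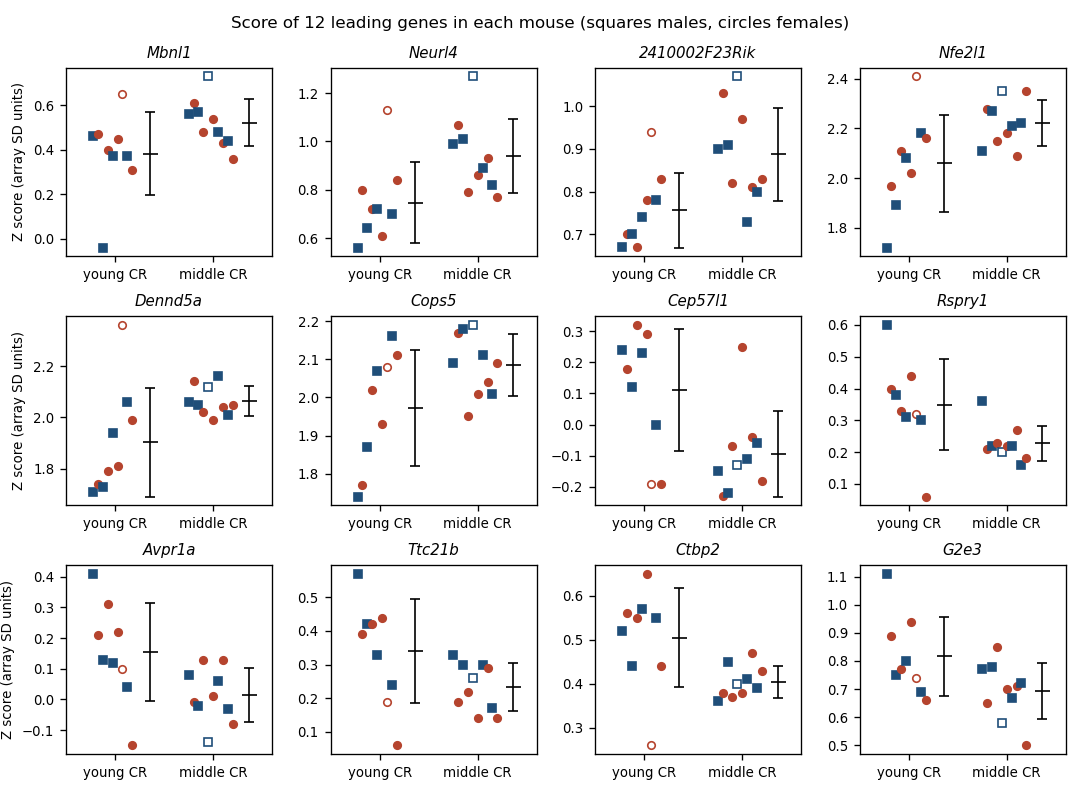
Z score of the 6 leading genes in each direction in every mouse, young CR (n = 9) and middle CR (n = 10), with mean and SD beside the points. Squares are males, circles females, and open symbols are the 2 arrays of different profile. The groups overlap in every panel, and the open symbol among young CR females often lies at or beyond the edge of its group.

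All 30 leading genes had the same direction in females and males. They were chosen on the mean of these 2 differences, so their agreement adds no support. Among the genes higher in middle CR mice, the female differences ran from 0.024 to 0.194 and the male ones from 0.149 to 0.341, and the male difference was the larger in 15 of 15. Among those lower, it was the larger in 10 of 15. Without the arrays of different profile the female difference was the larger for several of the genes higher in middle CR mice. These included Rnf40 (0.271 in females and 0.113 in males), Rmst (0.225 and 0.193) and Rnf216 (0.181 and 0.14). The male one stayed the larger for others, such as Neurl4 (0.141 and 0.273). Over all features, the differences of males were wider (SD 0.144) than those of females (SD 0.0642), and the 2 sexes shared a sign for 51.2% of features (Pearson r = -0.0468 over features, a description since features of an array are not independent). Without the arrays of different profile the SDs were 0.0944 and 0.0947, the sexes shared a sign for 77.7% of features and r was 0.726. The arrays of each sex share title runs and filter positions, which move with the scores, and their part in this was not tested.

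Within each sex 0 features passed with equal weights (0.0%), and at an unadjusted p under 0.05 there were 14 in females (0.329%) and 125 in males (2.94%). The age by sex difference passed for 0 features in every fit, with 9 at an unadjusted p under 0.05 (0.211%). The features nearest to it were Srp68, of the signal recognition particle (0.144 in females and -0.191 in males), Smc6, of the SMC5/6 complex (0.128 and -0.263), Tmem17, of the ciliary transition zone (0.128 and -0.283), and in the other direction Mbnl1 (0.028 and 0.266) and Rev3l, the catalytic subunit of DNA polymerase zeta (-0.07 and 0.135). Both arrays of different profile were the lowest of their age for Srp68, Smc6 and Tmem17 and the highest for Mbnl1 and Rev3l. Without the arrays of different profile the female and male differences were 0.0445 and -0.115 for Srp68, -0.0075 and -0.155 for Smc6, and -0.0175 and -0.175 for Tmem17, so that the female direction turned for Smc6 and Tmem17. They were then 0.0765 and 0.223 for Mbnl1 and -0.006 and 0.0825 for Rev3l.

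**Figure D3:**
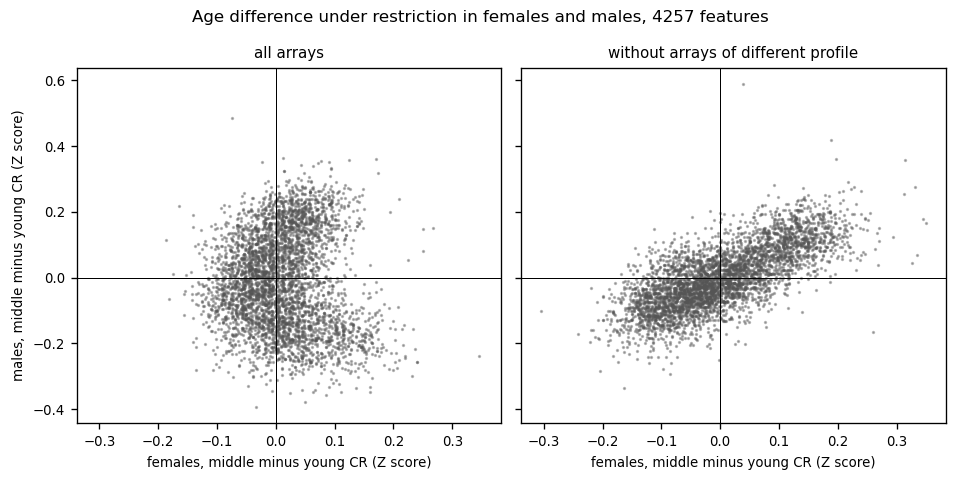
Middle minus young difference under CR in females (horizontal, Z score) against males (vertical), 1 point per tested feature, with all arrays (left) and without the arrays of different profile (right). The cloud has no tilt on the left (r = -0.0468) and rises from lower left to upper right on the right (r = 0.726).

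Groups of genes differed in how many members were higher or lower. Over the 2159 genes with a single name, 45.0% were higher and 54.9% lower in middle CR mice, with a median difference of -0.0103. None of these genes passed with equal weights, 2.96% reached an unadjusted p under 0.05, and with array weights 8.11% were called higher and 11.3% lower. In all 5 weighted fits 4.86% were called higher and 4.49% lower. The lists below are described against these shares and were given no test of their own. Medians near 0 changed sign without the arrays of different profile for chaperone and stress genes (0.016), mitochondrial ribosomal protein genes (0.00575), microglia and immune genes (0.0112) and insulin, IGF and mTOR genes (0.00688).

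Genes of the cytosolic ribosome were mostly lower in middle CR mice. Of 48 measured ribosomal protein genes 41 were lower and 7 higher, with a median of -0.0371. Their mean score ranged from 0.428 to 0.645 in young and from 0.424 to 0.563 in middle CR mice, with medians of 0.566 and 0.518. With array weights 13 were called lower and 3 higher, among them Rpl9 (-0.217), Rpl10 (-0.213 and -0.139 on its 2 features) and Rps26 (-0.175), and in the other direction Rps15 (0.211) and Rpl8 (0.127). In all 5 weighted fits 5 were called lower and 1 higher. The list's median was -0.0541 in males and -0.0085 in females. After correction for position on the filter 10 genes of the 48 were higher and the median was -0.0311. The 11 mitochondrial ribosomal protein genes had a median of -0.011 and the 17 translation factors one of -0.0107, close to that of all genes.

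Genes of energy metabolism were also lower on balance. Of 32 oxidative phosphorylation genes 23 were lower, with a median of -0.0505. The members at the ends were Ndufb11 (-0.124 ± 0.11) and Atp5g3 (-0.115 ± 0.0833), of complex I and the ATP synthase, and Uqcr11 (0.112 ± 0.0823) and Ndufa10 (0.103 ± 0.0986), of complexes III and I. With array weights 7 were called lower and 2 higher, and in all 5 weighted fits 1 was called lower and 1 higher. All 5 measured genes of fatty acid oxidation were lower, with a median of -0.0825, led by Acaa2 (-0.14 ± 0.101) and Hadh (-0.104 ± 0.103). Of these 1 was called with array weights, and 0 in all 5 weighted fits. The 6 glycolysis and TCA cycle genes were split evenly. The 8 genes of insulin, IGF and mTOR signaling were split evenly as well, with a median of -0.00713 and none called. Of 5 AMPK, FOXO and sirtuin genes 3 were higher and 2 lower, with a median of 0.0182, and 1 was called with array weights. Prkaa1, the catalytic alpha subunit of AMPK, differed by 0.138 ± 0.081, and with array weights its adjusted p was 0.0109 in limma.

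Protein quality control did not move as one group. Ubiquitin and proteasome genes were higher in 24 of 42, with a median of 0.0434, from Ube2q1 (-0.155 ± 0.107) and Ube2n (-0.102 ± 0.0516), both ubiquitin-conjugating enzymes, to Psmd10 (0.167 ± 0.0963), a proteasome assembly factor, and Usp25 (0.144 ± 0.0939), a deubiquitinase. With array weights 3 were called higher and 4 lower. Usp10, also a deubiquitinase, had 1 feature called in each direction (0.166 and -0.129). Of 14 autophagy and lysosome genes 11 were lower, with a median of -0.041, and the 4 called lower with array weights were Atg2b, a lipid transfer protein of the autophagosome, and Atp6v1b2, Atp6v0d1 and Atp6v1g1, subunits of the proton pump of lysosomes and vesicles. Lamp1, a lysosomal membrane protein, was called higher (0.137). In all 5 weighted fits 3 genes of this list were called lower and 0 higher. The 25 chaperone and stress genes had a median of -0.009, with 2 called higher and 3 lower (1 and 2 in all 5 weighted fits).

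Neuronal and glial lists were small and mostly lower. Of 6 striatal projection neuron genes 5 were lower, with a median of -0.0449. Strn, a calmodulin-binding scaffold, was the 1 called with array weights, and 0 were called in all 5 weighted fits. Of 6 synaptic vesicle genes 5 were lower, with a median of -0.0596, and 0 were called. Of 7 astrocyte genes on the array, the 5 with a mean score above 0 were all lower, led by Sparcl1 (-0.114 ± 0.0884), with a median of -0.0465 and 0 called. Without the arrays of different profile 1 of these 5 was higher. All 3 pan-neuronal genes were lower, among them Nefl, the light neurofilament (-0.0968 ± 0.0602), and Uchl1, a neuronal deubiquitinase (-0.0875 ± 0.082). Both were called lower with array weights, and of the list only Uchl1 in all 5 weighted fits. The 5 microglia and immune genes were split, with a median of -0.0235. Of 30 cytoskeletal genes 23 were lower, with a median of -0.0431, and 8 were called lower and 3 higher with array weights, including Tpm1, a tropomyosin (-0.187), and Dynll1, a dynein light chain (0.142). In all 5 weighted fits 3 cytoskeletal genes were called lower and 2 higher.

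Among kinases and phosphatases 33 of 54 were lower, with a median of -0.0156. With array weights 6 were called higher and 1 lower, 13.0% of the list against 19.3% of all genes. These counts were the same in all 5 weighted fits. After correction for position 28 of the 54 were higher and the median was 0.002. The 6 were Prkaca, the catalytic subunit of PKA (0.188 ± 0.116 with equal weights), Prkaa1, Ppp3ca, the catalytic subunit of calcineurin, Ppp1r9b, the dendritic spine protein spinophilin, Ppp1r12b and Pak2. Csnk1g2, a casein kinase, was called lower. A second feature of Ppp3ca pointed the other way (-0.116 ± 0.145). Ion channel genes were higher in 5 of 6, with a median of 0.0509, including the potassium channel genes Kcnk1 (0.154 ± 0.0926) and Kcnd2 (0.101 ± 0.053). The 12 DNA repair, 7 Wnt and 4 Notch genes had medians of -0.0146, -0.0035 and 0.0108.

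**Figure D4:**
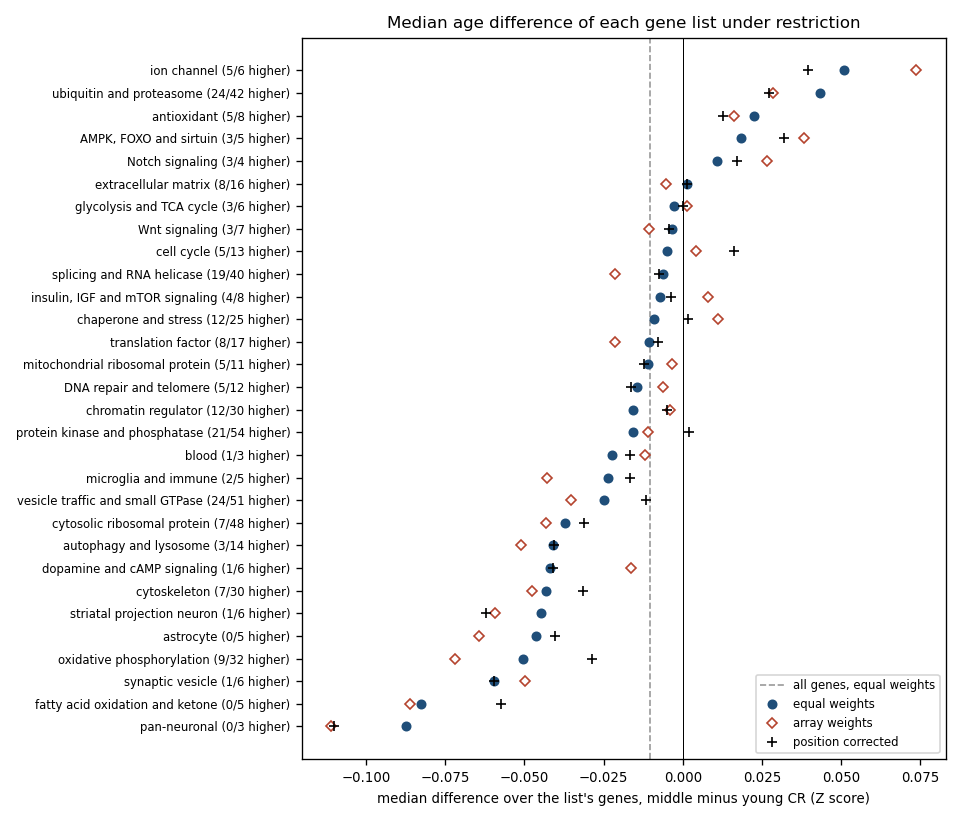
Median middle minus young difference under CR (Z score) over the genes of each list with 3 or more measured members, with equal weights (blue circles), array weights (open diamonds) and correction for position (crosses). The dashed line is the median of all 2159 genes, -0.0103. With equal weights, pan-neuronal, fatty acid oxidation and synaptic vesicle genes have the lowest medians and ion channel and ubiquitin-proteasome genes the highest. The order differs with array weights and with correction for position, and many lists hold few genes.

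Genes that mark striatal function or were named in the study's text did not pass with equal weights. Ppp1r1b had scores of 0.10, 0.72 and 0.89 in young and of 0.25, 0.675 and 0.83 in middle CR mice, a difference of -0.0645 ± 0.105 (exact permutation p = 0.571). Rasd2 had scores of 0.07, 0.27 and 0.34 in young and of -0.14, 0.13 and 0.29 in middle CR mice, a difference of -0.0922 ± 0.054 (exact permutation p = 0.0859). In 9 of 10 middle CR mice it lay below the young median, but the groups overlapped. Ctsd, a lysosomal aspartic protease, differed by -0.0235 ± 0.0592, Cst3, an inhibitor of cysteine proteases, by -0.0127 ± 0.0972, and Wrn, the helicase of Werner syndrome, by -0.0585 ± 0.0483. Arpp19, a regulator of protein phosphatase 2A, differed by -0.0187 ± 0.0525 on a feature with a mean score above 0 and by 0.0835 ± 0.0736 on one below it. Of 12 features of Hba-a1, an alpha-globin gene that marks blood, 7 were lower. Xist, on a feature with scores below 0, ran from -1.2 to -0.79 in young CR males and from -0.81 to -0.32 in young CR females. In middle CR mice it ran from -1.13 to -0.5 in males and from -0.88 to -0.56 in females, so the sexes overlapped at both ages. In middle CR mice the overlap came only from male replicate 3 (-0.5), an array of different profile. The other middle CR males ran from -1.13 to -0.95, below all middle CR females.

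Features of the same gene often disagreed. Of 140 genes with exactly 2 tested features, both had the same direction in 75 (53.6%) with equal weights and in 70 (50.0%) with array weights. With array weights 7 genes had more than 1 called feature, and these ran in 1 direction in 5 of them, Agr2, Rpl10, Rpl22l1, Rps4x and Vcp, and in opposite directions in Rtf1 and Usp10. The called features also differed in level. Features called higher with array weights had a median score of 1.43 and those called lower one of 0.596, against 0.606 for all tested features.

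The difference followed the order of the features on the filter. In the first eighth of the tested features by number the median difference was 0.0127 and 58.0% were higher in middle CR mice. In the sixth and the seventh eighth the medians were -0.0386 and -0.0364, with 35.7% and 35.3% higher. With all arrays, the median in males fell from 0.026 in the first eighth to -0.081 in the seventh, while in females it stayed between -0.022 and 0.022. Without the arrays of different profile the median of both sexes together was 0.0103 in the first eighth and -0.047 in the seventh. The sexes were not separated by eighth without those arrays. With weights estimated gene by gene 84 features were called higher and 4 lower in the first eighth, and 10 higher and 116 lower in the last. With the same kind of weights after correction for position the counts were 40 and 26 in the first and 52 and 55 in the last. With position corrected, the leading genes still differed by 0.0512 to 0.181 and by -0.17 to -0.064. The part of position in single differences was not tested beyond this correction.

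**Figure D5:**
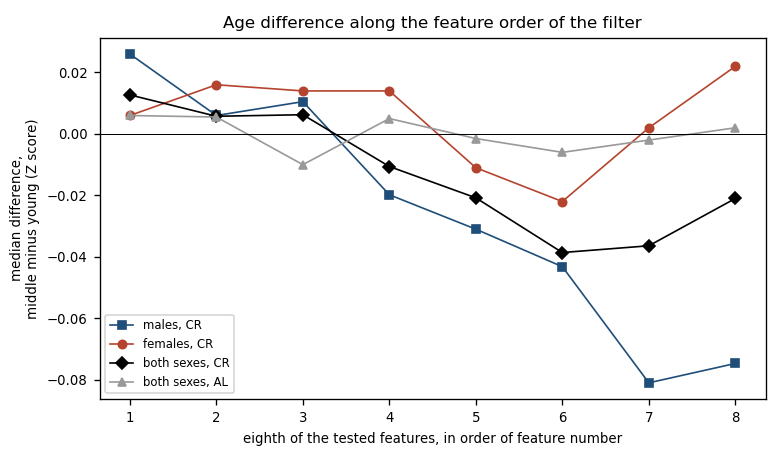
Median middle minus young difference (Z score) in each eighth of the 4257 tested features in order of feature number, for CR males, CR females, both sexes under CR and both sexes under AL. With all arrays, the CR male line falls from 0.026 to -0.081 and -0.0747, while the AL line stays between -0.01 and 0.006.

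The middle minus young difference was also measured in AL mice, on 20 other arrays. Its SD over features was 0.0594, against 0.0776 under CR, and 28 of the 30 leading genes of the CR comparison had the same direction in it, where 47.1% of all tested features did. The exceptions were Snrpe (-0.05) and Rnf40 (-0.01). The AL differences of the leading genes ran from -0.05 to 0.057 for those higher and from -0.092 to -0.019 for those lower under CR. Ppfibp1 differed by -0.092 under AL and by -0.093 under CR, and Jmjd4 by -0.082 and -0.0968. Ctbp2 differed by -0.071 and Pdgfrb by -0.072 under AL. Over all features the differences of the 2 diets correlated at -0.0673 with all arrays and at 0.567 without those of different profile, where 71.7% of features shared a sign. The 2 comparisons share no array, but they share title runs and the order of the filter, whose part in this was not tested. The difference between the diets passed for 0 features in every fit, with 4 at an unadjusted p under 0.05 (0.094%). The features nearest to it were Snrpe (0.137 under CR and -0.05 under AL), Prkaa1 (0.138 and -0.057), Kcnmb1, a subunit of calcium-activated potassium channels (-0.153 and 0.059), and Yeats2, a chromatin reader (-0.115 and 0.066). All 4 had an adjusted p of 0.889 in limma.

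Spread between mice did not differ by the test between the ages. The spread of an array, the median absolute deviation of its tested features from the group mean scaled for group size, was 0.1 ± 0.0654 (SD, n = 10) in middle and 0.131 ± 0.0723 (SD, n = 9) in young CR mice. The difference of -0.0275 did not pass an exact permutation test within sex (two-sided, p = 0.438). The 2 arrays of different profile had the widest spreads, 0.313 in young CR females and 0.264 in middle CR males. Without both, the difference was -0.0227 (exact permutation p = 0.116), without middle CR male replicate 3 alone it was -0.0522 (exact permutation p = 0.0108), and without young CR female replicate 4 alone it was 0.00203 (exact permutation p = 0.951).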

How the data were processed

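The authors hybridized striatal cDNA labelled with a radioactive nucleotide to nylon filters and transformed each array to Z scores. The deposited values are these scores, and each array's 8448 features have mean 0 and SD 1. Log base and treatment of background are not given in the sources used here. The number of arrays limits the precision. Every array carries a separate mouse number in the labels, and mice are thus the replicates. The columns of 2 old AL arrays were listed in reverse order (correlation with the median profile 0.135 and 0.138, and 0.992 when turned) and were turned.

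The 57 adult arrays were fitted in limma 3.58.1 (R 4.3.3) with 1 mean for each of 12 groups of age, diet and sex, which share 1 estimate of spread. Features with a mean score above 0 over these arrays were tested, and p-values were adjusted over all 4257 by Benjamini-Hochberg. Single values were also tested by exact permutation within sex (Python 3.11.15, numpy 2.4.6). Gene names came from the platform table through gene identifiers (4861 features matched, 4875 features with 1 name, 224 with several and 3349 with none). Features of a gene were averaged for the 41 lists, of which those with 3 or more measured genes were described. A gene counted as called when any of its features was. Named genes were the 15 features in each direction with the smallest p after those that passed, 5 in each direction for the differences between sexes and diets, list members at the ends, and genes fixed by name, with their other features. Members that the weighted fits called were also named, after their values were seen. Genes fixed by name that had no feature with a single name are left out.

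The comparison, the members and the lists were chosen with earlier results of these data known. The alternatives were another normalization, filter, block, weighting, order of values, position correction (running median over 101 features) and set of arrays. The calling rule stated in the study's methods, without its ANOVA step, was another. Arrays of different profile correlate with the median profile at under 0.95; there are 8 in the series.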

Additional observations from a re-analysis of the deposited data

Results flagged for a closer look

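Among 69 named features, each examined in both groups (138 tests), 21 groups held an array farther from the others than Dixon's test allows at the 95% level. Chance would give about 1 in 20 in independent tests of features chosen without regard to their values. Many of these features were chosen on differences between the same arrays, and all tests reuse these arrays, so that rate is no measure here. Of the 21 flags, 9 were young CR female replicate 4 and 6 were middle CR male replicate 3, the 2 arrays of different profile.

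Young CR female replicate 4 stood apart for Neurl4 (1.13), Srp68 (0.27), Smc6 (-0.35), Tmem17 (-0.23), Rev3l (0.68), Prkaa1 (1.55), a second feature of Arpp19 (0.20) and 2 features of Hba-a1 (0.42 and 0.25). Middle CR male replicate 3 stood apart for Rmst (1.69), Tmem17 (-0.17), Pomk (0.80), Kcnmb1 (0.30) and 2 features of Hba-a1 (0.71 and 0.52). The remaining flags were spread over 5 arrays. Young CR male replicate 2 was low for Mbnl1 (-0.04, against 0.31 in the next lowest). Middle CR female replicate 2 was low for Slc17a9 (2.40) and Nxn (1.39), and middle CR female replicate 3 was high for Cep57l1 (0.25). Middle CR female replicate 4 (-0.19) and middle CR male replicate 1 (-0.21) were low for 1 feature of Hba-a1 each. The part of the different profile in these values was not tested.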

How the results depend on the processing

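The count of features called was 0 for both sexes together, for females and for males under most alternatives, with these exceptions. With array weights it was 742 for both sexes, 239 in females and 19 in males. With weights estimated gene by gene it was 687, 169 and 36, with weights on the 19 CR arrays 823, 18 and 168, and with gene by gene weights without the arrays of different profile 771, 266 and 63. With gene by gene weights and position correction it was 757 in both sexes and 97 in females, and 0 in males. The rule of the study's methods, without its ANOVA step, called 63, 4 and 66, and 0 in each after adjustment. The cause was not tested. Age by sex and age by diet gave 0 in every fit, with at most 421 and 577 features at an unadjusted p under 0.05.

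With the run of title numbers as a replicate block, 0 features were called and 185 had an unadjusted p under 0.05. Leaving out each of the 19 arrays in turn gave 0 called throughout and 16 (without young CR male replicate 1) to 516 (without young CR female replicate 4) at an unadjusted p under 0.05, 355 without young CR male replicate 4 and 247 without young CR female replicate 5. The spread between mice reversed without young CR female replicate 4 (0.00203) and passed without middle CR male replicate 3 (-0.0522), the ends of its range as arrays were left out, and was -0.00579 with the replicate block. For the spread, a term for arrays of different profile could not be fitted, as such an array is the 1 of its group. For single genes, 6533 of 6874 values under alternatives stayed on the same side of the threshold and 341 passed. Small differences could change sign without passing. Cst3, for example, differed by -0.0127 with all arrays and by 0.0235 without middle CR male replicate 3. List medians moved by less than the spread between mice in 1176 of 1178.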
